A study of Mus musculus with 4 samples.

Results

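The insulin-like growth factor (IGF) axis is described here in mouse mammary basal cells, and in colonies grown from them, through 10 genes. These are the ligands Igf1 and Igf2, the receptors Igf1r and Igf2r, and the binding proteins Igfbp2 to Igfbp7. They were chosen by gene name as members of 1 family of ligands, receptors and carriers, and they are 10 of 17630 genes measured. All 10 were listed in the files by their NCBI Gene identifiers. Igfbp1 was not analysed here.

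The study asked what sympathetic nerve signals do to the mammary gland and its stem cells. It sequenced RNA from sorted basal cells, the outer layer of the duct, and from colonies grown from basal cells. There were 4 libraries, with 1 library per condition. By staining, the paper found both basal and luminal cells in colonies grown from basal cells, so colony levels are those of a mixture. Without replicates, no test of the conditions was made, and the spread between animals or cultures is unknown. All 4 libraries came from WT mice. The sorted control library held basal cells from control mice, with no treatment given in its label, and the sorted 6-OHDA library held basal cells from mice given 6-hydroxydopamine, a neurotoxin that destroys sympathetic nerve endings. The control colonies were grown from basal cells in Matrigel with epidermal growth factor and an insulin, transferrin and selenium supplement, with no agonist. The SP colonies were grown in the same way with salbutamol, an agonist of the β2 adrenergic receptor, and phenylephrine, an agonist of the α1 receptor. The number 200 in the title of the SP library carries no unit, and that the library titled with 0 is its untreated colony control was read from the pairing of the titles. Basal cells were gated as Lin−CD24+CD29hi cells of female mice, a gate that removes cells with CD31, CD45 or TER119. For the pubertal model the methods describe subcutaneous 6-OHDA in mice 3 weeks old, and they name C57BL/6 and Actin-DsRed mice. The schedule and strain behind each library, the age at harvest and the number of mice pooled are not stated for the sequenced cells.

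IGF1 and IGF2 are secreted peptides that bind the receptor tyrosine kinase IGF1R, which signals through the insulin receptor substrates to PI3 kinase, AKT and mTOR. IGF2R, which is also the mannose-6-phosphate receptor, takes IGF2 to the lysosome, and 6 classical binding proteins hold the ligands outside the cell until proteases release them. In the mammary gland, growth hormone acts through IGF1 made in the stroma to drive growth of the ducts, and IGFBP5 is known for its rise when the gland regresses after lactation.

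Levels are given in FPKM (fragments per kilobase of transcript, scaled to the number of fragments sequenced), the unit of the deposited values. FPKM is divided by length, so levels can be set beside each other between genes of a library. Differences between 2 libraries are log2 fold changes of FPKM + 1, which understate the change of genes with low levels. A gene passed the filter when its mean FPKM over the 2 libraries was at least 1, and it was counted as higher or lower when the log2 fold change was more than 0.3 in size. The FPKM values summed to 508071 in the sorted control, 517504 in the sorted 6-OHDA library, 577631 in the control colonies and 588202 in SP colonies. Genes above 0 numbered 16261, 16371, 15934 and 15756 in the same order.

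The basal label was checked against marker genes. The 10 basal markers, led by keratin 14 (Krt14), were all at or above 1 FPKM in all 4 libraries. They summed to 10171 FPKM in the sorted control, 9121 in the sorted 6-OHDA library, 6525 in the control colonies and 14412 in SP colonies. Krt14 was the most abundant of them, at 3595, 2633, 3298 and 6919.9 FPKM. The 11 luminal markers, 1 of which is the EGF ligand Areg, summed to 1168, 1044, 1664 and 1639.5 FPKM, with 10 of 11 at or above 1 FPKM in the sorted control and all 11 in the other libraries. Keratin 8 (Krt8) led them at 559.9, 545, 698 and 683 FPKM. Luminal markers were thus present in every library, and the basal sum was larger in each.

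Markers of cells outside the epithelium were also detected. The 11 fibroblast markers summed to 200.8 FPKM in the sorted control, 401 in the sorted 6-OHDA library, 45.9 in the control colonies and 28.0 in SP colonies, with 10, 11, 6 and 5 of them at or above 1 FPKM. Decorin (Dcn) led in the sorted libraries at 115 and 135 FPKM, Col1a2 in the control colonies at 20.6 and Fbln1 in the SP colonies at 15.1. Single genes of this list did not all follow its sum: Col1a2 stood at 21.4 FPKM in the sorted control and 20.6 in the control colonies, and Pdgfra at 2.62 and 9.95. Clec3b was at 0 in the control colonies, and Dpt and Pi16 were at 0 in the SP colonies. The 8 endothelial markers summed to 319.99, 316, 3.59 and 5.44 FPKM, with 8, 8, 2 and 2 at or above 1 FPKM. Pecam1, which encodes the CD31 protein that the gate removes, led them in the sorted libraries at 107 and 93.0 FPKM, Egfl7 led in the colonies at 1.74 and 3.59 FPKM, and Cldn5 was at 0 in the SP colonies. A level summed over a mixed sample does not separate fewer cells of a type from less RNA per cell, and the 2 cannot be told apart in these libraries.

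The smaller marker lists followed several patterns. The 6 pericyte markers summed to 40.4, 48.7, 24.7 and 18.7 FPKM in the order sorted control, sorted 6-OHDA, control colonies and SP colonies, with 6, 6, 2 and 1 at or above 1 FPKM. Rgs5 led them in the sorted libraries at 19.2 and 27.1 FPKM and Notch3, which epithelial cells also express, in the colonies at 22.5 and 17.3; Kcnj8 was at 0 in both colony libraries. Leukocyte markers were low throughout. The 8 leukocyte markers summed to 15.7, 13.5, 3.86 and 4.94 FPKM, with 5, 4, 1 and 2 at or above 1 FPKM, and Cd68 led them at 6.05, 5.39, 2.70 and 3.26. Ptprc, the gene of CD45, was at 0 in both colony libraries, Cd3e was at 0 in the sorted 6-OHDA library and in both colony libraries, and Csf1r and Laptm5 were at 0 in the control colonies. Of 6 adipocyte markers, Fabp4 made nearly the whole sum of 212, 375, 37.9 and 1.13 FPKM, with 210.2, 374, 34.4 and 1.05 FPKM of its own, and 1, 1, 3 and 1 markers were at or above 1 FPKM. Adiponectin (Adipoq), at 0.18, 0.12, 1.66 and 0.06 FPKM, and Plin1, at 0.11, 0.33, 1.23 and 0, were highest in the control colonies. Cidec was at 0 in the sorted 6-OHDA library and the SP colonies, and Retn in both colony libraries. The 6 Schwann cell markers, 1 of which is the epithelial receptor gene Erbb3, summed to 35.9, 39.9, 42.6 and 30.6 FPKM, with 4, 5, 3 and 3 at or above 1 FPKM. Mbp led them in the sorted libraries at 20.1 and 18.6 FPKM and Erbb3 in the colonies at 25.2 and 20.4.

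The sorted 6-OHDA library stood apart through salivary gland transcripts. A list of 7 salivary secretory genes, chosen from earlier results of these data, summed to 15353 FPKM in that library, 2.97% of its total, against 1.70 FPKM in the sorted control, 1.36 in the control colonies and 1.11 in SP colonies. Bpifa2 led them in the 6-OHDA library at 7277 FPKM. With these 7 genes left out and the libraries set to the same sum, the members' differences in the 6-OHDA comparison kept their direction and their side of the threshold of 0.3. That step only multiplies each library by a constant, so it cannot remove member transcripts brought in by any salivary cells. Whether such cells added to the members' levels was not tested.

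Of the 2 ligand genes, Igf1 stood at low levels in all 4 libraries and Igf2 only in the colonies. In the sorted libraries Igf2 was above the library's median FPKM, 3.85 in the control and 4.12 in the 6-OHDA library. Igf1 (NCBI Gene 16000, chr10:87858265-87937047, GRCm38.p6), the ligand through which growth hormone acts, stood at 0.62 FPKM in the sorted control, 1.04 in the sorted 6-OHDA library, 2.34 in the control colonies and 0.98 in SP colonies. It was highest in the control colonies, and its rank by level there was 10724 of 17630 genes. Igf2 (NCBI Gene 16002, chr7:142650768-142666816), a fetal growth factor expressed from the paternal allele, stood at 5.54, 9.77, 0.24 and 0.22 FPKM in the same order. It was present in both sorted libraries and near 0 in both colony libraries.

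The main ligand transcript differed between tissue and culture. The Igf2 level was 8.94 times the Igf1 level in the sorted control and 9.39 times in the sorted 6-OHDA library. In the control colonies the Igf1 level was 9.75 times the Igf2 level, and in the SP colonies 4.45 times. Igf2 stood at only 0.24 and 0.22 FPKM there, so these colony ratios rest on few fragments and are imprecise. The 2 ligands together summed to 6.16, 10.8, 2.58 and 1.20 FPKM in the order sorted control, sorted 6-OHDA, control colonies and SP colonies. Both genes have transcripts of very unequal length, 510 to 7052 bases for Igf1 and 376 to 4722 bases for Igf2, and which of them were expressed was not analysed here. Igf1os lies over Igf1, and Igf2os and Mir483 lie over Igf2; none of these 3 RNA genes were analysed here.

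The receptor genes varied least among the members. Igf1r (NCBI Gene 16001, chr7:67952257-68233668), the receptor kinase for both ligands, stood at 12.0 FPKM in the sorted control, 12.95 in the sorted 6-OHDA library, 8.55 in the control colonies and 9.81 in SP colonies. It was higher in the sorted libraries than in the colonies on the deposited scale. Igf2r (NCBI Gene 16004, chr17:12682406-12769706), which clears IGF2, stood at 19.1, 20.3, 33.9 and 30.85 FPKM. It was higher in the colonies than in the sorted libraries, the opposite order to Igf1r. The Igf2r level was 1.59 and 1.57 times the Igf1r level in the sorted control and 6-OHDA libraries, and 3.96 and 3.14 times in the control and SP colonies.

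The insulin receptor gene Insr, whose product can pair with IGF1R in hybrid receptors, stood at 7.66, 10.3, 10.1 and 8.17 FPKM in the order sorted control, sorted 6-OHDA, control colonies and SP colonies. The Igf1r level was 1.57, 1.26, 0.848 and 1.20 times the Insr level, so Insr was the higher of the 2 only in the control colonies. The related receptor gene Insrr was below 1 FPKM in all 4 libraries, at 0.49, 0.22, 0.07 and 0.03. Igfals, whose product joins IGFBP3 or IGFBP5 and a ligand in the large complex of the blood, stood at 0.36, 0.16, 1.14 and 0.81 FPKM. Igfbpl1, a gene for an IGFBP-like protein, stood at 0.09, 0.21, 0.02 and 0.02 FPKM.

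Binding protein transcripts were far more abundant than those of the ligands. The 6 genes together summed to 1739.6 FPKM in the sorted control, 1504 in the sorted 6-OHDA library, 2218 in the control colonies and 1068 in SP colonies. These sums were 0.342%, 0.291%, 0.384% and 0.182% of all FPKM of the library. Among the genes of the 4 libraries, Igfbp5 and Igfbp3 were in the first 300 by level in each, with ranks of 149, 171, 86 and 192 for Igfbp5 and 150, 174, 111 and 260.0 for Igfbp3.

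Igfbp5 (NCBI Gene 16011, chr1:72858065-72874865), which binds the extracellular matrix and is linked to regression of the gland, stood at 559.5, 457, 1142 and 431 FPKM in the order sorted control, sorted 6-OHDA, control colonies and SP colonies. It was the most abundant binding protein transcript in all 4 libraries and stood highest in the control colonies. Igfbp3 (NCBI Gene 16009, chr11:7206086-7215498), the main carrier of IGFs in the blood, stood at 551, 449, 741 and 323 FPKM. It followed Igfbp5 in all 4 libraries, and on the deposited scale it was also highest in the control colonies, though not above the sorted control under scaling by the median ratio. Igfbp7 (NCBI Gene 29817, chr5:77349240-77408045), a secreted protein with low affinity for IGFs, stood at 462, 342, 252 and 125 FPKM. It was highest in the sorted control and lowest in the SP colonies.

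The other 3 binding protein genes each stood lowest in the control colonies on the deposited scale. Igfbp2 (NCBI Gene 16008, chr1:72824480-72852474), which binds both ligands and also integrins, stood at 98.3, 171, 68.6 and 155 FPKM in the order sorted control, sorted 6-OHDA, control colonies and SP colonies. It was higher in each treated library than in its own control. Igfbp4 (NCBI Gene 16010, chr11:99040005-99052655), an inhibitor of IGF action that the protease PAPP-A cleaves, stood at 53.4, 68.8, 10.8 and 26.9 FPKM. It was higher in the sorted libraries than in the colonies and lowest in the control colonies. Igfbp6 (NCBI Gene 16012, chr15:102144186-102149512), which prefers IGF2 to IGF1, stood at 15.35, 15.6, 3.34 and 7.69 FPKM. Its levels in the 2 sorted libraries were close, and it was lowest in the control colonies.

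**Figure D1:**
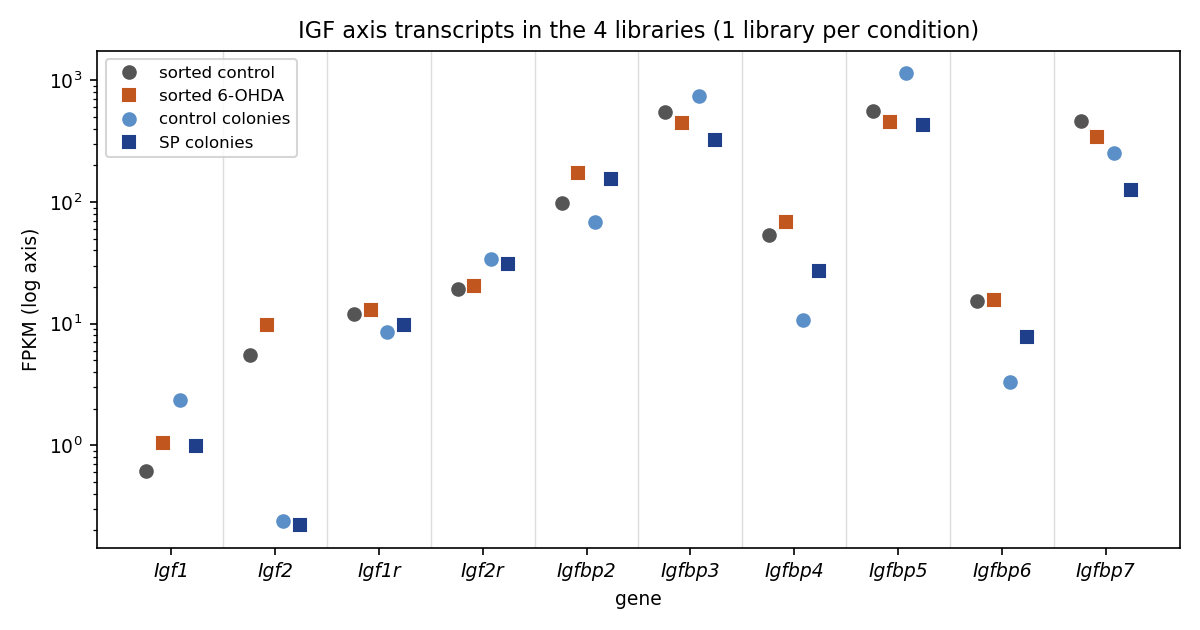
Level of each of the 10 IGF genes (horizontal axis) in FPKM on a log axis (vertical), with 1 point for each of the 4 libraries. Igfbp5 and Igfbp3 lie highest, and Igf2 drops from 5.54 and 9.77 FPKM in the sorted libraries to 0.24 and 0.22 FPKM in the colonies.

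The share of each gene in the summed IGFBP level is taken within a library on the deposited scale, so a factor applied to the whole library, as in the same-sum and median ratio scalings, leaves it as it is; quantile normalization need not. In the sorted control Igfbp5 made 32.2% of the sum, Igfbp3 31.7%, Igfbp7 26.6%, Igfbp2 5.65%, Igfbp4 3.07% and Igfbp6 0.882%. In the sorted 6-OHDA library the shares were 30.4%, 29.8%, 22.8%, 11.4%, 4.58% and 1.04% in the same order. The order of the 6 genes was thus unchanged between these 2 libraries, while the share of Igfbp2 was larger in the 6-OHDA library.

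Igfbp5 alone made 51.5% of the sum in the control colonies, where Igfbp3 made 33.4%, Igfbp7 11.4%, Igfbp2 3.09%, Igfbp4 0.486% and Igfbp6 0.151%. In the SP colonies the shares were 40.4%, 30.2%, 11.7%, 14.5%, 2.52% and 0.720% in the same order. Igfbp2 stood above Igfbp7 in the SP colonies only, and the other 3 libraries had the order Igfbp5, Igfbp3, Igfbp7, Igfbp2, Igfbp4, Igfbp6. The ratio of Igfbp5 to Igfbp3 was 1.02 in both sorted libraries, 1.54 in the control colonies and 1.34 in SP colonies.

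The genes fell into 2 sets by the direction of their difference in the SP colonies, a grouping taken from that result. Igfbp2, Igfbp4 and Igfbp6 together summed to 167 FPKM in the sorted control, 256 in the sorted 6-OHDA library, 82.7 in the control colonies and 189.6 in SP colonies. They made 9.60%, 17.02%, 3.73% and 17.7% of the IGFBP sum. Igfbp3, Igfbp5 and Igfbp7 together summed to 1573, 1248, 2135 and 879 FPKM and made 90.4%, 83.0%, 96.3% and 82.3%. The larger share of the set with Igfbp2 under SP follows from how the sets were made. In the sorted cells, which did not define them, the share of this set was larger in the 6-OHDA library than in the control, and Igfbp2 carried most of it.

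**Figure D2:**
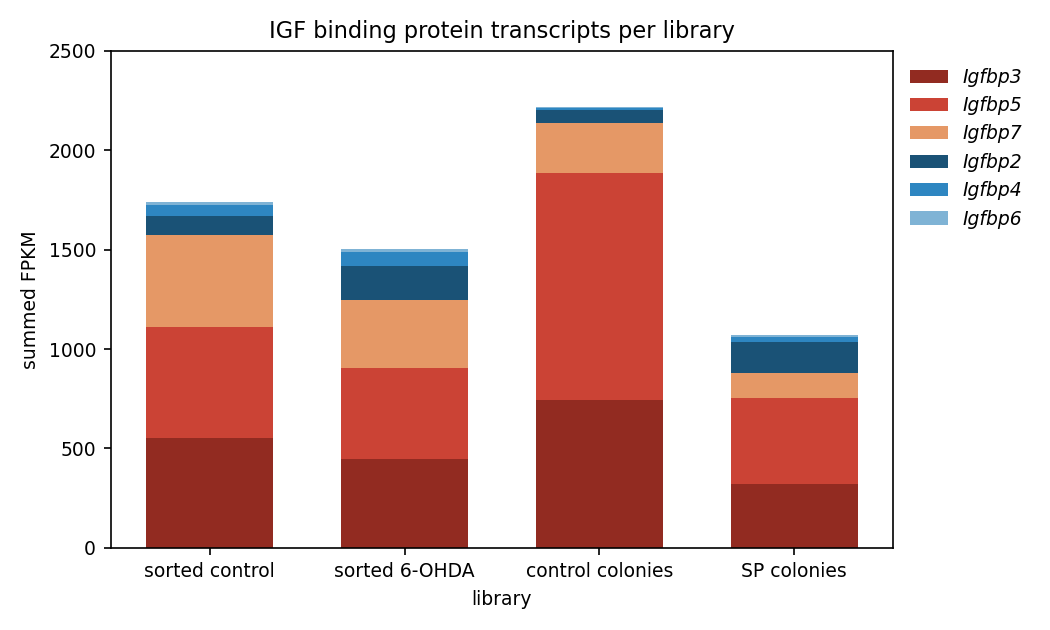
Summed FPKM of the 6 binding protein genes (vertical axis) in each of the 4 libraries (horizontal axis), with 1 colour per gene. On the deposited scale the control colonies have the tallest bar, 2218 FPKM, of which Igfbp5 makes 51.5%, and the SP colonies the shortest, 1068 FPKM; under the median ratio the control colonies have 0.897 times the sum of the sorted control.

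In basal cells of 6-OHDA-treated mice, Igfbp2 and Igf2 were higher than in control basal cells, Igfbp4 was slightly higher and Igfbp7 was lower. Igfbp2 went from 98.3 to 171 FPKM, 1.74 times the control level and a log2 fold change of 0.80. Igf2 went from 5.54 to 9.77 FPKM, 1.76 times the control level and a log2 fold change of 0.72. Both genes stood higher in the 6-OHDA library under every scaling tried, with lowest log2 fold changes of 0.73 for Igfbp2 and 0.64 for Igf2. With a pseudocount of 5 the Igf2 value was 0.49. Among all genes compared 204 rose by more than Igfbp2 and 250 by more than Igf2.

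Igfbp4 went from 53.4 to 68.8 FPKM, 1.29 times the control level, with a log2 fold change of 0.36 that was 0.30 and just inside the threshold under scaling by the median ratio. Igfbp7 went from 462 to 342 FPKM, a log2 fold change of -0.43, so that the control level was 1.35 times the 6-OHDA level. Igfbp3 and Igfbp5 had log2 fold changes of -0.30 and -0.29, both inside the threshold. They were past it at -0.32 and -0.32 when the libraries were set to the same sum, and at -0.36 and -0.35 under the median ratio. The sum over the 6 binding proteins was 1.16 times as high in the control as in the 6-OHDA library.

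The 2 IGF receptors hardly differed. The log2 fold change was 0.10 for Igf1r and 0.08 for Igf2r. Insr, which is not among the 10 members, was higher in the 6-OHDA library, from 7.66 to 10.3 FPKM (0.38), and past the threshold under each scaling tried for it, at 0.36 under the same sum, 0.33 under the median ratio and 0.304 under quantile normalization. For Igfbp6 it was 0.02, and it was -0.04 under the median ratio and -0.03 under quantile normalization. Igf1 had a log2 fold change of 0.33 but was below the filter, at 0.62 and 1.04 FPKM.

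Of the 10 members, 9 passed the filter in the 6-OHDA comparison, and 3 of them were higher and 1 was lower. The members' counts were 3 higher and 3 lower under the same sum and 2 higher and 3 lower under the median ratio. Among all 11749 genes past the filter, 24.2% were past the threshold, 15.8% higher and 8.35% lower. Past a log2 fold change of 1 there were 0 members higher and 0 lower, against 1.95% of all genes, 1.05% higher and 0.902% lower. The median log2 fold change was 0.08 over the members and 0.06 over all genes, and the median size of the change was 0.30 and 0.17. Over all genes, 1857 were higher and 981 lower on the deposited scale, and 1371 were higher and 1347 lower under the median ratio. The median ratio centers the genes past the filter, so near-equal counts follow largely from that scaling. The sums of the fibroblast list, 200.8 and 401 FPKM, of the adipocyte list, 212 and 375 FPKM, and of the salivary list, 1.70 and 15353 FPKM, also differed between these 2 libraries. Of the 11 fibroblast markers 7 were higher and 1 was lower. Past a log2 fold change of 1 there were 5 of them higher, among them Col1a2 from 21.43 to 71.05 FPKM. In the adipocyte list the difference was in Fabp4, while Adipoq stood at 0.18 and 0.12 FPKM. Of the 10 luminal markers past the filter 1 was higher and 4 were lower, or 0 and 4 under the median ratio. Of the 10 basal markers 1 was higher and 2 were lower, Krt14 (-0.45) and Krt17 (-0.46). The part of these lists in the differences of the members was not tested.

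In colonies grown with SP, the 6 binding proteins separated into 3 higher and 3 lower, by factors of 2.02 to 2.65. Igfbp4 was 2.50 times, Igfbp6 2.30 times and Igfbp2 2.26 times as high as in the control colonies. In the other direction, the control level was 2.65 times the SP level for Igfbp5, 2.30 times for Igfbp3 and 2.02 times for Igfbp7. These 6 directions were the same under every scaling tried.

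Among the genes that were higher, Igfbp4 went from 10.8 to 26.9 FPKM, a log2 fold change of 1.24. Igfbp2 went from 68.6 to 155 FPKM, a log2 fold change of 1.16. Igfbp6 went from 3.34 to 7.69 FPKM, a log2 fold change of 1.002 that ranged from 0.61 to 1.18 over the alternatives. Of all genes compared, 156 rose by more than Igfbp4, 177 by more than Igfbp2 and 236 by more than Igfbp6.

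Among those that were lower, Igfbp5 went from 1142 to 431 FPKM, a log2 fold change of -1.40. Igfbp3 went from 741 to 323 FPKM, a log2 fold change of -1.20. Igfbp7 went from 252 to 125 FPKM, a log2 fold change of -1.01. Of all genes compared, 53 fell by more than Igfbp5, 88 by more than Igfbp3 and 151 by more than Igfbp7. Since the genes that were lower were the abundant ones, the summed IGFBP level of the control colonies was 2.08 times that of the SP colonies.

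Igf1, the main ligand transcript of the colonies, went from 2.34 to 0.98 FPKM, a log2 fold change of -0.75. The control level was 2.39 times the SP level, but at these low levels the difference depends on the pseudocount, from -1.18 with 0.1 to -0.30, just inside the threshold, with 5. Igf2 was below the filter at 0.24 and 0.22 FPKM, with a log2 fold change of -0.02. The receptors differed little, with log2 fold changes of 0.18 for Igf1r and -0.13 for Igf2r.

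Of the 10 members, 9 passed the filter in the SP comparison, and 3 were higher and 4 lower, or 3 and 3 with a pseudocount of 5, where Igf1 is no longer counted. Among all 11849 genes past the filter, 31.5% were past the threshold, 11.7% higher and 19.8% lower. Past a log2 fold change of 1 there were 3 members higher and 3 lower, against 3.33% of all genes, 2% higher and 1.33% lower. Igfbp6, at 1.002, and Igfbp7, at -1.01, were only just past 1: Igfbp7 was at -0.94 under the median ratio and Igfbp6 at 0.98 under the same sum, and both were inside 1 with a pseudocount of 5. The median log2 fold change was -0.13 over the members and -0.07 over all genes, while the median size of the change was 1.01 over the members and 0.19 over all genes. Over all genes, 1385 were higher and 2351 lower on the deposited scale, and 1749 were higher and 1752 lower under the median ratio, where near-equal counts follow largely from the scaling. Marker lists also differed between these 2 libraries. The basal sum went from 6525 FPKM in the control colonies to 14412 under SP, with 7 of its 10 genes higher and 1 lower, or 9 and 0 under the median ratio. Of the 11 luminal markers 1 was higher, Areg, and 4 were lower, or 2 and 1 under the median ratio, with sums of 1664 and 1639.5 FPKM. By staining of colonies, the paper reports no significant change under SP in the shares of basal and luminal cells. The fibroblast sum went from 45.9 to 28.0 FPKM, with 1 higher and 4 lower of the 6 genes that passed the filter, among them Col1a2 from 20.6 to 3.94 FPKM. The adipocyte sum went from 37.9 to 1.13 FPKM, most of it Fabp4 from 34.4 to 1.05, with Adipoq from 1.66 to 0.06. The pericyte sum went from 24.7 to 18.7 FPKM, with 2 of 2 genes lower (1 under the median ratio), and the Schwann cell sum from 42.6 to 30.6 FPKM, with 2 of 3 lower. The part of these cell types in the differences of the members was not tested.

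Control colonies and sorted control cells differed in most genes, so the members are given beside the shift of all genes. The median log2 fold change over all genes, colonies against sorted cells, was 0.45 on the deposited scale and -0.01 under the median ratio, a shift of -0.47. The median ratio centers the genes past the filter, so the latter value was set by that scaling. Igf2, Igfbp4 and Igfbp6 were clearly lower in the colonies on both scales. Igf1, Igf2r and Igfbp5 were higher on both, while Igfbp3 was at 0.43 on the deposited scale and at -0.08 under the median ratio.

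Igf2 went from 5.54 FPKM in the sorted control to 0.24 in the control colonies, a log2 fold change of -2.40, and of -2.66 under the median ratio, that ran from -1.01 with a pseudocount of 5 to -4.05 with 0.1. The sorted level was 23.1 times the colony level. Igfbp4 went from 53.4 to 10.8 FPKM, a log2 fold change of -2.21, and of -2.69 under the median ratio. Igfbp6 went from 15.35 to 3.34 FPKM, a log2 fold change of -1.91, and of -2.34 under the median ratio. The sorted level was 4.95 times the colony level for Igfbp4 and 4.60 times for Igfbp6, and 468, 549 and 725 genes fell by more than Igf2, Igfbp4 and Igfbp6.

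Smaller differences in the same direction were seen for Igfbp7, Igfbp2 and Igf1r. Igfbp7 had a log2 fold change of -0.87, and of -1.38 under the median ratio. Igfbp2 had -0.51 and -1.01, and Igf1r had -0.45 and -0.91. Igf1 had a log2 fold change of 1.04, and of 0.77 under the median ratio, 0.39 with a pseudocount of 5 and 1.76 with 0.1, with the colony level 3.77 times the sorted level. Igfbp5 had 1.03 and 0.52, with the colony level 2.04 times the sorted level, and Igf2r had 0.79 and 0.31. The binding protein sum of the control colonies was 1.27 times that of the sorted control on the deposited scale and 0.897 times under the median ratio.

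All 10 members passed the filter in this comparison, with 4 higher and 6 lower; under the median ratio 3 were higher and 6 lower. Among all 12244 genes past the filter, 82.2% were past the threshold, 55.7% higher and 26.6% lower. Past a log2 fold change of 1 there were 2 members higher and 3 lower, against 43.9% of all genes, 30.7% higher and 13.2% lower. These 2 higher members, Igf1 and Igfbp5, were inside 1 under every other scaling, with 0 higher and 4 lower under the same sum, 0 and 5 under the median ratio and 0 and 3 under quantile normalization. Shares of all genes past 1 were not taken under these scalings, which shift all genes, so these counts have nothing to be read beside. The median over the members was -0.48, and the median size of the change was 0.95 over the members and 0.88 over all genes. Over all genes, 6817 were higher and 3252 lower on the deposited scale, and 4830.0 were higher and 4902 lower under the median ratio, where near-equal counts follow largely from the scaling.

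Marker sums differed strongly between the same 2 libraries. The fibroblast list went from 200.8 to 45.9 FPKM, the endothelial list from 319.99 to 3.59, the adipocyte list from 212 to 37.9 and the basal list from 10171 to 6525. Of the 10 basal markers 1 was higher and 7 were lower, or 1 and 9 under the median ratio. The adipocyte sum fell through Fabp4, from 210.2 to 34.4 FPKM, while Adipoq went from 0.18 to 1.66 and Plin1 from 0.11 to 1.23. On the deposited scale the luminal list went the other way, from 1168 to 1664 FPKM, with 9 of its 11 genes higher and 1 lower, among them Elf5 from 0.63 to 22.5 FPKM. Of all genes past the filter, 55.7% were higher and 26.6% lower on that scale. Under the median ratio the luminal sums were level, with a colony sum 1.002 times the sorted sum and 7 genes higher and 2 lower. The Schwann cell list went from 35.9 to 42.6 FPKM, 1.19 times the sorted sum, and was 0.834 times it under the median ratio. The part of these cell types in the differences of the members was not tested. Culture, medium and time outside the animal differ together between these libraries and cannot be told apart.

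**Figure D3:**
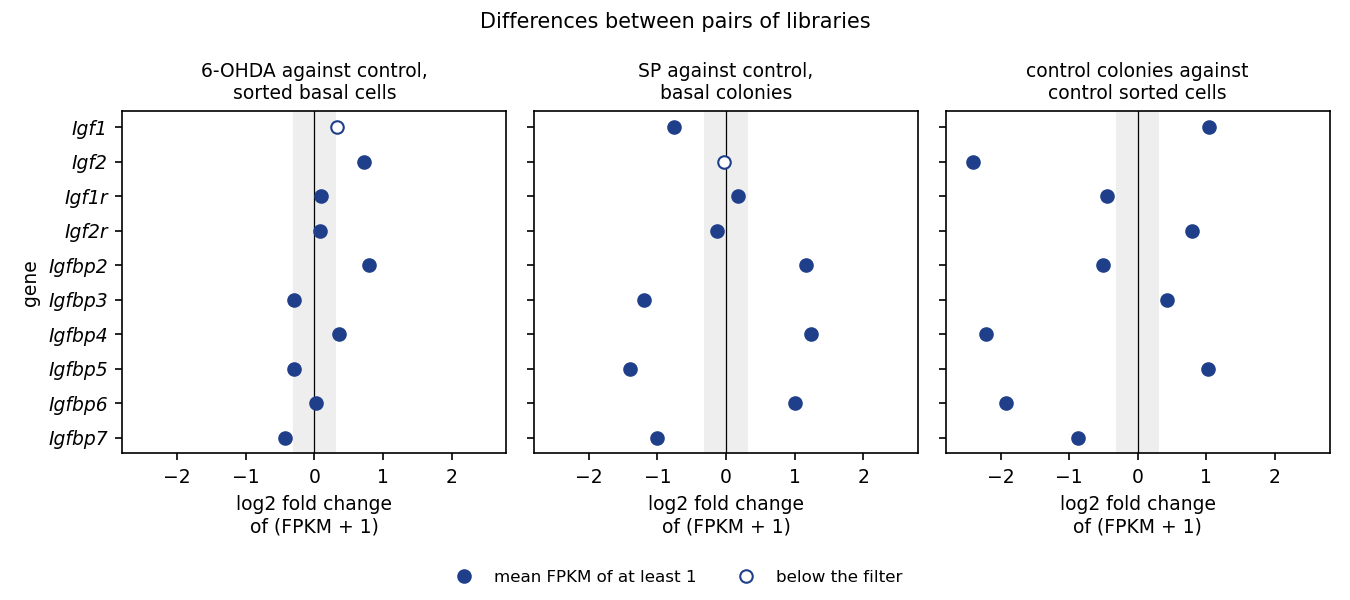
Log2 fold change of FPKM + 1 (horizontal axis) of each of the 10 genes (vertical axis) in the 3 comparisons, with the band of -0.3 to 0.3 in grey and open circles for genes below the filter. Under SP the binding proteins lie on both sides, from 1.24 for Igfbp4 to -1.40 for Igfbp5; Igfbp3 in the culture comparison lies at 0.43 here and at -0.08 under scaling by the median ratio.

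The 3 comparisons share libraries: the sorted control serves the 6-OHDA and the culture comparison, and the control colonies serve the SP and the culture comparison. Values of the culture comparison are therefore not independent of those of the 6-OHDA and SP comparisons, which share no library with each other. The control colonies are the baseline for SP but not for culture, so their level alone can give opposite signs in the SP and culture comparisons. The log2 fold changes for 6-OHDA, SP and culture were 0.80, 1.16 and -0.51 for Igfbp2, and 0.36, 1.24 and -2.21 for Igfbp4. For Igfbp5 they were -0.29, -1.40 and 1.03, and for Igfbp7 -0.43, -1.01 and -0.87. Igfbp7 was lower in the second library of all 3 pairs.

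The EGF family was set beside the IGF genes as another system of ligands and receptors. Its list held 15 genes, of which 14 were measured (Nrg3 was not analysed here) and 11 passed the filter in each comparison. Its counts, and those of the pathway lists that follow, stand beside the shares over all genes. On the deposited scale these were 15.8% higher and 8.35% lower for 6-OHDA, 11.7% and 19.8% for SP, and 55.7% and 26.6% for culture. Under the median ratio 1371 genes were higher and 1347 lower of 11747 for 6-OHDA. The counts were 1749 and 1752 of 11845 for SP, and 4830 and 4902 of 12228 for culture. In the 6-OHDA comparison 4 EGF genes were higher and 1 lower, with a median log2 fold change of 0.09. Nrg2, a neuregulin, went from 3.31 to 7.87 FPKM (log2 fold change 1.04), Btc from 0.75 to 2.28 (0.91) and Nrg1 from 57.4 to 80.6 (0.48). In the SP comparison 5 were higher and 1 lower, with a median of 0.13. The ligand genes Epgn, Nrg1 and Areg differed most: Epgn by 1.999 on the log2 scale (7.21 to 31.8 FPKM), Nrg1 by 1.52 (4.60 to 15.0 FPKM) and Areg by 1.395 (16.9 to 46.2 FPKM). The EGF ligands past the threshold under SP were thus mostly higher, where the IGF binding proteins lay on both sides; this contrast was not tested. In the culture comparison 3 EGF genes were higher and 7 lower, with a median of -0.62, and under the median ratio 2 were higher and 8 lower. Hbegf went from 133 to 7.31 FPKM (-4.01), Nrg1 from 57.4 to 4.60 (-3.38) and Ereg from 23.8 to 4.04 (-2.30).

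Proteases that cleave IGF binding proteins, and the stanniocalcins that block some of them, were taken as a list of 11 genes. Its counts and medians thus mix proteases with inhibitors. Under 6-OHDA 10 passed the filter, 2 higher and 2 lower (1 and 2 under the median ratio), with a median log2 fold change of 0.09. Adam12 went from 3.46 to 5.45 FPKM (0.53), Mmp2 from 94.3 to 68.2 (-0.46) and Pappa2, a relative of PAPP-A, from 1.28 to 0.78 (-0.36). Pappa, the gene of PAPP-A and the other higher gene, went from 6.98 to 9.10 FPKM (0.34) and was inside the threshold under the median ratio; its log2 fold change was -0.43 under SP and -1.07 in culture. Under SP 9 passed, 1 higher and 5 lower, with a median of -0.43. Stc1, a stanniocalcin gene, went from 2.63 to 1.24 FPKM (-0.70), Mmp2 from 32.2 to 21.1 (-0.59) and Prss23 from 170.5 to 121 (-0.49), while Htra1, the higher gene, went from 87.4 to 122 (0.47). In the culture comparison 9 passed, 5 higher and 4 lower (4 and 4 under the median ratio), with a median of 0.52 on the deposited scale and 0.02 under the median ratio. Adam12 went from 3.46 to 25.2 FPKM (2.55), Stc1 from 20.03 to 2.63 (-2.53) and the lysosomal protease gene Ctsd from 302 to 1366 (2.18).

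The relay from the receptor was taken as a list of 30 genes, from the insulin receptor substrates to AKT, mTOR and the FOXO factors. Under 6-OHDA 29 passed the filter, 3 higher and 0 lower, with a median of 0.03; under the median ratio 2 were higher and 1 lower. Grb10, an adaptor that inhibits the receptor, went from 3.04 to 5.80 FPKM (0.75), Rheb, an activator of mTOR, from 57.6 to 78.5 (0.44) and Gsk3b from 11.3 to 14.7 (0.35). Under SP 28 passed, 1 higher and 5 lower, with a median of -0.15; under the median ratio 1 was higher and 1 lower. Grb14, another inhibitory adaptor, went from 32.4 to 17.3 FPKM (-0.87), and Tsc2 from 13.3 to 10.3 and Irs1 from 7.72 to 5.93 both had log2 fold changes of -0.33. In the culture comparison 29 passed, 11 higher and 6 lower, with a median of 0.12. Under the median ratio 6 were higher and 16 lower, beside 4830 higher and 4902 lower of 12228 genes. Irs2 went from 77.0 to 8.87 FPKM (-2.98), Grb14 from 3.71 to 32.4 (2.83) and Pik3r2 from 7.48 to 32.4 (1.98).

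The 2 insulin receptor substrates that carry most IGF1R signals differed between sorted cells and colonies in opposite directions. Irs1 stood at 2.48, 2.61, 7.72 and 5.93 FPKM in the order sorted control, sorted 6-OHDA, control colonies and SP colonies. Irs2 stood at 77.0, 64.2, 8.87 and 7.73 FPKM. Irs2 was the more abundant in all 4 libraries, and the gap between the 2 was much smaller in the colonies.

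Hormone receptors and signal proteins upstream of local IGF1 formed a list of 8 genes, and all 8 passed the filter in each comparison. Under 6-OHDA 0 were higher and 1 lower, with a median of 0.05. Prlr, the prolactin receptor gene, went from 5.21 to 3.29 FPKM (-0.53), Ghr, the growth hormone receptor gene, from 10.1 to 12.4 (0.27) and Jak2 from 56.9 to 48.5 (-0.23). Under SP 0 were higher and 3 lower, with a median of -0.26, and 2 were lower under the median ratio. Esr1, the estrogen receptor gene, went from 3.62 to 1.87 FPKM (-0.69), the progesterone receptor gene Pgr from 5.02 to 3.36 (-0.47) and Socs2 from 20.3 to 16.1 (-0.32). In the culture comparison 2 were higher and 3 lower, with a median of -0.02, and 2 higher and 5 lower under the median ratio. Jak2 went from 56.9 to 16.2 FPKM (-1.75), Pgr from 1.76 to 5.02 (1.13) and Socs2 from 36.9 to 20.3 (-0.83).

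Imprinted genes often expressed with Igf2 were listed as 11 genes, of which 10 were measured; H19, the neighbour of Igf2, was not analysed here. Under 6-OHDA all 10 passed the filter, 3 higher and 1 lower, with a median of 0.10. Mest went from 4.82 to 9.90 FPKM (0.91), Dlk1 from 1.23 to 2.57 (0.68) and Slc38a4 from 13.4 to 8.25 (-0.64). Under SP 6 passed, 0 higher and 2 lower, with a median of -0.24. Mest went from 33.8 to 7.03 FPKM (-2.11), Plagl1 from 4.65 to 3.40 (-0.36) and Dcn from 1.52 to 1.11 (-0.26). In the culture comparison 9 passed, 1 higher and 8 lower, with a median of -1.68, and the same counts under the median ratio. Dcn, also on the fibroblast list, went from 115 to 1.52 FPKM (-5.53), Slc38a4 from 13.4 to 0 (-3.85) and Mest from 4.82 to 33.8 (2.58). Of the 3 genes for proteins that bind the Igf2 mRNA, Igf2bp2 alone passed the filter, at 2.04, 2.74, 2.86 and 2.70 FPKM in the order sorted control, sorted 6-OHDA, control colonies and SP colonies.

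Genes with the most similar profile over the 4 libraries were sought for the 3 members with the widest range, Igf2, Igfbp4 and Igfbp6. The measure was the Euclidean distance between centred profiles of log2(FPKM + 1), over 9121 genes whose mean FPKM was 5 or more. Nearest to Igf2 were Jam2 (distance 0.238), Sox10 (0.313) and Reln (0.330). Jam2, a junction protein gene, stood at 12.05, 19.8, 1.37 and 0.97 FPKM in the order sorted control, sorted 6-OHDA, control colonies and SP colonies. Nearest to Igfbp4 were Cpxm2 (0.177), Ereg (0.326) and Slc16a1 (0.367). Cpxm2 stood at 20.5, 23.7, 3.61 and 8.58 FPKM, and Ereg, an EGF ligand gene, at 23.8, 33.5, 4.04 and 9.13 FPKM. Nearest to Igfbp6 were Slc2a1 (0.133), Serpinb6b (0.162) and Emp1 (0.195). Slc2a1, the gene of the glucose transporter GLUT1, stood at 218, 210.7, 55.6 and 124 FPKM. With 4 libraries, likeness of profiles is a description only.

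Igfbp2 and Igfbp5 are neighbours on chromosome 1, with 5590 bases between their ends, and they are read toward each other. Under SP they differed in opposite directions, with log2 fold changes of 1.16 and -1.40. Igfbp3 and Igfbp4 lie on chromosome 11, 91824506 bases apart. Polr2b overlaps Igfbp7, and the labels do not say whether fragments were counted by strand.

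Promoters of the 4 binding protein genes with the largest differences under SP are shown, Igfbp2 and Igfbp4 for the genes that were higher and Igfbp3 and Igfbp5 for those that were lower. Each is the 250 bases before the transcript start in RefSeq on GRCm38.p6, printed 5′ to 3′ on the strand of the gene. The Igfbp3 and Igfbp4 windows lie inside the gene spans given above, which reach further upstream than the starts used here. They lie at chr1:72824230-72824479 on the plus strand for Igfbp2, chr11:99040994-99041243 on the plus strand for Igfbp4, chr11:7213924-7214173 on the minus strand for Igfbp3 and chr1:72874866-72875115 on the minus strand for Igfbp5. Capitals mark matches on either strand to the TATA box letters TATAAA, the cAMP response element TGACGTCA, its core TGACG, which lies inside the full element, the letters ACGTG of E-boxes and hypoxia elements, or the letters GCGTG of the xenobiotic element.
Igfbp2: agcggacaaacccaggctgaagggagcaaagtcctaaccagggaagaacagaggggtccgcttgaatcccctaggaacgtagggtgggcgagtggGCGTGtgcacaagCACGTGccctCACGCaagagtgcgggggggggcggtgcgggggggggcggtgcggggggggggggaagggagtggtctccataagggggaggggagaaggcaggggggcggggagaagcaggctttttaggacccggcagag
Igfbp4: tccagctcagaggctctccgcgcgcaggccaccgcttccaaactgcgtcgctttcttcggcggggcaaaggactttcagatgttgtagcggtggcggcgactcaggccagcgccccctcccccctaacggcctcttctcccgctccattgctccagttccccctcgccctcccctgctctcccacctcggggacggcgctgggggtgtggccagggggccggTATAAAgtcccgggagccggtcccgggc
Igfbp3: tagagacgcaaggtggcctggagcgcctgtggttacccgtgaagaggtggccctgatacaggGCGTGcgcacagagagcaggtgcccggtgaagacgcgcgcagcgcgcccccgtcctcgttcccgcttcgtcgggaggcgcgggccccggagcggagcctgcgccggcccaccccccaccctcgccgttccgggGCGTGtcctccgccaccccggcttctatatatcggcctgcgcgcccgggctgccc
Igfbp5: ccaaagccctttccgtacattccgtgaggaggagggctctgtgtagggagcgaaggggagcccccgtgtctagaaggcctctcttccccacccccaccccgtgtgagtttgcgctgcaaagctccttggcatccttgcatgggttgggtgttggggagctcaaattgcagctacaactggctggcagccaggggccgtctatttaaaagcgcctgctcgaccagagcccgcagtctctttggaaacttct
Igfbp2 has 2 RefSeq starts, and the window printed is that of the upstream start, which was not found in the GENCODE transcripts. The other start was found there, and its window, chr1:72825137-72825386 on the plus strand, holds none of these letters. In the printed Igfbp2 window, ACGTG begins 142 bases before the start on the minus strand and 141 bases before it on the plus strand, and these 2 matches overlap in the palindrome CACGTG. Matches to GCGTG begin there 155 bases before the start on the plus strand and 132 bases before it on the minus strand. The Igfbp4 window holds TATAAA from 28 bases before the start, and the Igfbp3 window holds GCGTG from 188 and 55 bases before it, both on the plus strand. The Igfbp5 window holds none of these letters. Of 32851 RefSeq promoters of the same length, 12.4% held TATAAA, 1.55% TGACGTCA, 17.8% TGACG, 16.6% ACGTG and 28.2% GCGTG. Of the first promoters of the 6 binding protein genes, 2, 0, 0, 2 and 3 held them. A match describes letters, not a site of binding, and its absence says only that these letters are not in this window.

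The depth behind these values was read from the spacing of low FPKM values. If fragments are taken as 250 bases long, 1 FPKM on 1 kilobase of transcript stood for 16.75 to 18.25 fragments over the 4 libraries. Assumed lengths from 150 to 300 bases gave 15.1 to 18.9 fragments, and the fit scored higher at 300 bases, 0.464 to 0.496, than at 250 bases, 0.437 to 0.479. At that depth Igfbp5, the best covered member, had roughly 44049 fragments in the sorted 6-OHDA library and 118298 in the control colonies. Igfbp6 had roughly 233, 226, 51.9 and 121 fragments in the order sorted control, sorted 6-OHDA, control colonies and SP colonies. Igf2 had 12.4 to 436 fragments in the sorted control, 20.8 to 732 in the sorted 6-OHDA library, 0.5 to 19.3 in the control colonies, and 0.5 to 18.0 under SP, depending on which of its 7 transcripts is assumed. Igf1 had 11 to 286.5 fragments in the control colonies and, under SP, 4.7 to 121.7, by the same reckoning over 8 transcripts. Igfbp4 had 46.6 to 695 in the control colonies and, under SP, 118 to 1759, over 3 transcripts. The values of Igf2 in the colonies thus rest on few fragments, those of Igf2 in the sorted cells and of Igf1 on a number that may be small, while those of Igfbp2, Igfbp3, Igfbp5 and Igfbp7 rest on many more, roughly 917 at the least (Igfbp2 in the control colonies, at its shortest transcript).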

How the data were processed

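FPKM values of 17630 genes in 4 libraries were deposited by the authors. The submitters' processing notes name mm10, Bowtie2, RSEM 1.3.1 and DESeq2 1.4.5, with no role or order. Of the gene numbers, 17512 matched NCBI Gene identifiers in the RefSeq table of GRCm38.p6; the other 118 stayed in without names. With FPKM and 1 library per condition, no count test was run. Pairs of libraries were compared as differences of log2(FPKM + 1), with a pseudocount of 1, among genes whose mean FPKM was 1 or more, at a threshold of 0.3. The members and lists were chosen with earlier results of these data known.

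Named genes were all 10 members, Igfals, Insr, Insrr, Irs1 and Irs2, the 3 genes with the largest absolute log2 fold change of each pathway list in each comparison, the most abundant gene of each cell type list in each library, and the 3 nearest profiles of the 3 members with the widest range. Igfbpl1, Pappa, Htra1, and among the markers Col1a2, Pdgfra, Adipoq, Plin1, Elf5, Krt17 and those at 0, were named after their values were seen. The alternatives were pseudocounts of 0.1 and 5, no filter, a mean FPKM of at least 5, rescaling to the same sum, the median ratio of the genes past the filter, quantile normalization, a threshold of 1 and the same sum without 7 salivary genes. List counts and sums, and members past 1, under the scalings were added after the data were seen. Depth was estimated from FPKM steps of 375 to 409 genes with a single GENCODE transcript, with fit scores of 0.437 to 0.479, against at most 0.114 with lengths shuffled. The counting steps were run on simulated data, which is not a test between the conditions. Scripts ran in Python 3.11.15 with numpy 2.4.6, pandas 2.3.3 and scipy 1.17.1, and figures in matplotlib 3.10.9.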

Additional observations from a re-analysis of the deposited data

How the results depend on the processing

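Over the members and 6 alternatives of pseudocount and scaling, 53 of 60 differences in the 6-OHDA comparison, 59 of 60 in the SP comparison and 57 of 60 in the culture comparison kept their direction, where they were past the threshold, and their side of it. In the 6-OHDA comparison the number of members lower went from 1 to 3 under the same sum and to 3 under the median ratio, through Igfbp3 and Igfbp5. Igf1 came to 0.10 with a pseudocount of 5 and to 0.26 under quantile normalization, and Igfbp4 to 0.30 under the median ratio. At a threshold of 1 there were 0 higher and 0 lower. In the SP comparison the median of the members went from -0.13 to 0.024 with a mean FPKM of at least 5, where fewer genes pass, and Igf1 came to -0.30 with a pseudocount of 5. In the culture comparison the median went from -0.48 to -0.66 under the same sum, -0.66 under the same sum without salivary genes, -0.96 under the median ratio and -0.71 under quantile normalization. Igfbp3 reversed to -0.080 under the median ratio and came to 0.24 under both same-sum scalings, and at a threshold of 1 there were 2 higher and 3 lower, or 0 and 4 under the same sum, 0 and 5 under the median ratio and 0 and 3 under quantile normalization. Shares of all genes past 1 were not taken under the other scalings, so those counts of members have nothing to be read beside. Apart from the scalings themselves, the cause was not tested.

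No paired analysis was possible because each condition has 1 library and no animal or culture number links them. The alternative with Igfbp1 in the binding protein sum was not run, since Igfbp1 was not analysed here. Without replicates, no difference can be set against the spread between mice or cultures. Depth limits the ligands most: Igf2 in the colonies rests on few fragments, and the numbers behind Igf1 and behind Igf2 in the sorted cells, its 6-OHDA difference included, depend on an unknown choice of transcripts. RNA levels give no measure of secreted protein.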
